A study of Saccharomyces cerevisiae with 6 samples.

Results

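The genes described here encode the proteins of the small subunit of the cytosolic ribosome of budding yeast. They were chosen as every probe whose platform gene symbol is RPS followed by a digit, which gave 51 genes of 5365 named genes, each with 1 probe. Thorium, a radioactive heavy metal, was given at 5 mM for 2 h to S288C yeast in exponential growth in YPD medium at 25 °C, and the polyA RNA of these cells carried Cy5. The Cy3-labelled RNA on the same array came from S288C cells grown in YPD at 25 °C for 2 h with no treatment. There were 3 hybridizations of independent biological samples, each read in a high power and a low power scan, so the 6 scans make 3 replicates, and no hybridization had the dyes exchanged. Values are ratios of Cy5 over Cy3 on a scale read as log2, so a value below 0 is likely less RNA in thorium. Neither the base nor the direction is stated, and the direction was taken from which channel the labels give first. As thorium was always Cy5, a dye bias of a probe would recur in every replicate and cannot be told apart from thorium's effect.

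The small subunit decodes messenger RNA, and its proteins form a head, a body and a platform around the rRNA. Because of an ancient genome duplication most of these proteins are encoded by a pair of genes, named A and B, whose products are identical or nearly so. Ribosomal protein genes are among the most strongly transcribed of growing yeast. They are driven by Rap1, Fhl1 and Ifh1, answer to TOR and protein kinase A signalling, and are known to be lowered together in many stresses.

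Of the 56 genes of this kind in the reference table, 5 had no named probe and were not analysed here. Of the 51 members 44 were measured in every replicate, among 3613 such genes of the series, and the other 7 had values in replicates 2 and 3 alone. Replicate 1 stood apart. Across the 3613 genes its ratios had a Pearson correlation of 0.09 with replicate 2 and 0.02 with replicate 3, against 0.56 between replicates 2 and 3. Across the 44 members the same correlations were 0.53, 0.35 and 0.68, as a description over genes that share arrays. Scans are centred near 0 by the normalization, so a change shared by most genes, or in total RNA per cell, cannot be seen, and fewer cells and less RNA per cell cannot be told apart.

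Most small-subunit genes had ratios below 0 in thorium, while a handful lay above 0. The mean log2 ratio was below 0 for 37 of the 44 members measured in all replicates (84.1%), and 56.5% of all tested genes had a mean below 0. A ratio below 0 in every replicate was found for 25 members (56.8%), against 23.2% of all tested genes. Above 0 in every replicate were 5 members (11.4%), against 15.4% of all tested genes.

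The median over the 44 members was -0.44 on the log2 scale, with quartiles at -0.73 and -0.20, while the median over all 3613 genes was -0.09. The medians of the members were -0.34, -0.73 and -0.51 in replicates 1, 2 and 3, a mean of -0.53 ± 0.19 (SD, n = 3). All 3 lay below the medians of all tested genes, which were -0.11, -0.12 and -0.05. Without replicate 1 the median was -0.58 over all 51 members, with 33 below 0 in both remaining replicates. In those replicates 39.2% of genes were below 0 in both.

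No member passed in limma's moderated test of each mean against 0, with Benjamini-Hochberg adjustment over the 3613 genes and a threshold of 0.05. In that test 0% of all genes were called lower and 0% higher. At an unadjusted p under the same threshold, 13 members lay lower, where 8.11% of all genes did, and 2 lay higher, where 5.7% of all genes did. The smallest adjusted p among members was 0.271. Leaving out replicate 1 gave 77 calls among all genes and 0 among the members, whose smallest adjusted p was then 0.0512.

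**Figure D1:**
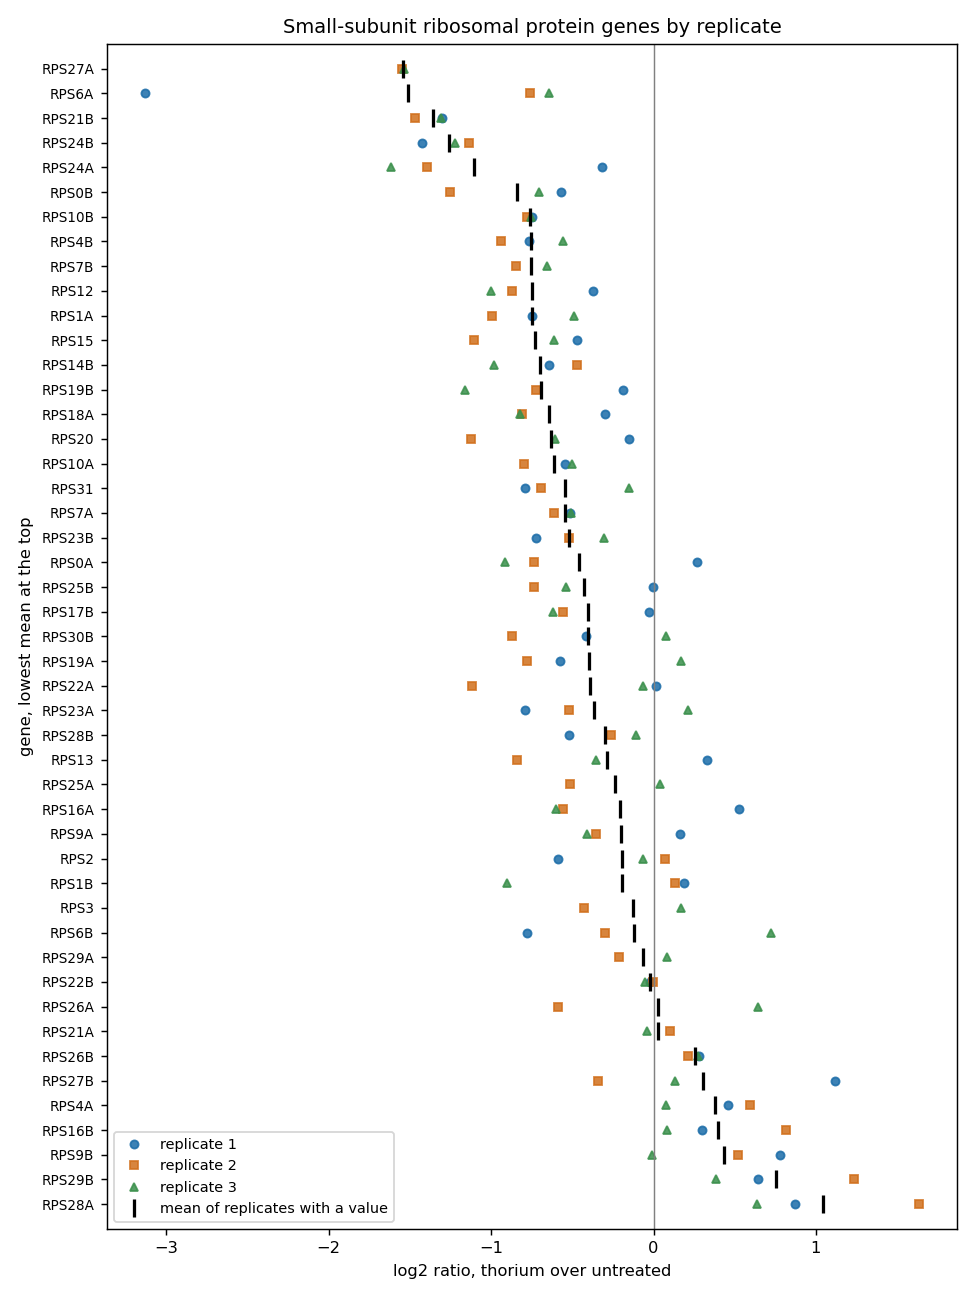
Log2 ratios of thorium over untreated for 47 of the 51 small-subunit genes, 1 row per gene with the lowest mean at the top, points for replicates 1, 2 and 3 and a bar for their mean. The means run from -1.54 for RPS27A to 1.05 for RPS28A, and the replicate 1 value of RPS6A at -3.13 stands apart from its other values.

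The lowest ratios as deposited belonged to genes of body proteins. RPS21B, for a protein that binds next to the products of RPS0 and RPS2, had log2 ratios of -1.30, -1.47 and -1.31 in replicates 1, 2 and 3, a mean of -1.36 ± 0.09 (SD, n = 3). The signal in thorium was 0.390 times that of untreated cells (2.57 times if the direction were turned), and RPS21B ranked 21 from the lowest of the 3613 genes. Its unadjusted p was 0.00193 and its adjusted p 0.271 in limma's test. The replicates of RPS21B lay close together, and all 6 scans gave a value of -1.19 or lower.

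RPS24A and RPS24B encode the same body protein, and both were far below 0. RPS24B stood at -1.43, -1.14 and -1.22 in replicates 1, 2 and 3, a mean of -1.26 ± 0.15 (SD, n = 3; adjusted p = 0.271 in limma's test). RPS24A stood at -0.31, -1.39 and -1.62, a mean of -1.11 ± 0.70 (SD, n = 3; adjusted p = 0.299 in limma's test). The pair differed mainly in replicate 1, where RPS24A had a value in the low power scan alone.

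RPS6A encodes the protein that is phosphorylated through TOR and the kinase Ypk3. It had the lowest mean of the members measured in all replicates, at -1.51 ± 1.40 (SD, n = 3; adjusted p = 0.305 in limma's test), from values of -3.13, -0.76 and -0.65. Replicate 1 decides this mean, with -2.34 in its high power scan and -3.91 in its low power scan, and without replicate 1 the mean was -0.70. Its partner RPS6B had -0.78, -0.30 and 0.72, with a mean of -0.12 ± 0.76 (SD, n = 3), and its replicates lay on both sides of 0.

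RPS0B, for a protein needed for the last cleavage of small-subunit rRNA, stood at -0.57, -1.25 and -0.70, a mean of -0.84 ± 0.36 (SD, n = 3). RPS0A was at 0.27, -0.74 and -0.91, a mean of -0.46 ± 0.64 (SD, n = 3). All replicates of RPS0B were below 0, and RPS0A was above 0 in replicate 1 alone.

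RPS27A, for a zinc-binding platform protein, had no value in replicate 1. It read -1.55 and -1.53 in replicates 2 and 3, the lowest mean of all 51 members at -1.54, and was not in the test over genes with 3 replicates. RPS27B had 1.12, -0.34 and 0.13, a mean of 0.30 ± 0.74 (SD, n = 3), and without replicate 1 its mean was -0.10.

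At the other end, RPS28A and RPS29B encode small head proteins and had the highest means. RPS28A had log2 ratios of 0.87, 1.63 and 0.63 in replicates 1, 2 and 3, a mean of 1.05 ± 0.52 (SD, n = 3), a signal in thorium 2.06 times that of untreated cells (0.484 times if the direction were turned). Its unadjusted p was 0.0148 and its adjusted p 0.299 in limma's test, and it ranked 112 from the highest of 3613 genes. Every scan with a value gave RPS28A a ratio above 0.

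RPS29B, for a zinc-binding protein near the mRNA path, had ratios of 0.64, 1.24 and 0.38, a mean of 0.75 ± 0.44 (SD, n = 3; adjusted p = 0.349 in limma's test). RPS29A had no value in replicate 1 and read -0.21 and 0.08 in replicates 2 and 3. The replicates of RPS29B lay above both values of RPS29A. With the section-centring described further on, the mean of RPS29A minus RPS29B went from -0.88 to 0.19, so the order of the pair turned.

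The other members with means above 0 were nearer to it. RPS9B, for a protein that affects decoding accuracy, had 0.78, 0.52 and -0.01, a mean of 0.43 ± 0.40 (SD, n = 3). RPS16B, whose product reaches the decoding site with its tail, had 0.30, 0.81 and 0.08, a mean of 0.40 ± 0.38 (SD, n = 3). RPS4A, for a body protein, had 0.46, 0.59 and 0.08, a mean of 0.38 ± 0.27 (SD, n = 3). The spread of these 3 genes reached close to 0 in replicate 3. RPS26B, for a protein at the mRNA exit, stood at 0.28, 0.21 and 0.27, a mean of 0.25 ± 0.04 (SD, n = 3). With the section-centring described further on, RPS26B was at -0.10 ± 0.44 (SD, n = 3), in a section with a median of 0.35. Its partner RPS26A had no value in replicate 1 and split between -0.59 in replicate 2 and 0.65 in replicate 3.

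Genes with no second copy on the list were all below 0 on average, from -0.75 to -0.13. RPS12, for a protein of the beak of the head, had -0.37, -0.87 and -1.002, a mean of -0.75 ± 0.33 (SD, n = 3). RPS15, for a head protein needed for nuclear export of the subunit, had -0.47, -1.11 and -0.61, a mean of -0.73 ± 0.33 (SD, n = 3). RPS20, for a head protein, had -0.15, -1.12 and -0.61, a mean of -0.63 ± 0.49 (SD, n = 3). All 3 genes were below 0 in every replicate, with the value nearest to 0 in replicate 1.

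RPS31, which encodes a ribosomal protein fused to ubiquitin, had -0.79, -0.69 and -0.15, a mean of -0.55 ± 0.34 (SD, n = 3). RPS13, for a body protein, had 0.33, -0.84 and -0.35, a mean of -0.29 ± 0.59 (SD, n = 3). RPS2, for a protein of the decoding fidelity centre, had -0.58, 0.07 and -0.06, a mean of -0.19 ± 0.35 (SD, n = 3). RPS31 was below 0 throughout, whereas RPS13 and RPS2 had replicates on both sides of 0. RPS3, at the mRNA entry site, had values in the low power scans of replicates 2 and 3 alone, -0.43 and 0.17.

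Several genes whose partner lacks a named probe also lay below 0. RPS14B, for a platform protein, averaged -0.70 ± 0.26, RPS18A, for a head protein, -0.64 ± 0.30, RPS17B, for a head protein, -0.40 ± 0.32 and RPS30B, for a body protein, -0.40 ± 0.47 (SD, n = 3 each). RPS30B had 1 replicate above 0, at 0.07, and the other 3 genes had none.

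Split by place in the subunit, head and body genes had medians close to each other. The median was -0.49 over the 16 measured head genes, 13 of them with a mean below 0, and -0.43 over the 28 measured body and platform genes, 24 of them with a mean below 0. The replicate medians of head minus body genes were 0.16, -0.06 and -0.07, a difference of 0.01 ± 0.13 (SD, n = 3; exact sign-flip permutation test, 2-sided, p = 1, with 0.25 the smallest possible). Below 0 in every replicate were 68.8% of the head genes and 50% of the body and platform genes, a difference that was not tested. All 5 measured members with a mean below -1 as deposited were body genes, and 3.21% of all tested genes had such a mean. Body and platform genes were 28 of the 44 measured members. With the section-centring described further on, only RPS6A and RPS24B stayed below -1, at -1.43 and -1.02. The head gene RPS15 was then at -0.82 ± 1.13 (SD, n = 3).

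The genes for the large subunit, RPL, are the group most like the small-subunit genes. Of 64 measured RPL genes 46 had a mean below 0 and 24 were below 0 in every replicate (37.5%), with a median of -0.27. The replicate medians of small-subunit minus RPL genes were -0.11, -0.29 and -0.34, a mean difference of -0.25 ± 0.12 (SD, n = 3). With 3 replicates the exact sign-flip permutation test cannot go below p = 0.25, the value it gave (2-sided, adjusted p = 0.333 over 4 differences). The difference of the medians over genes was -0.17 as deposited and -0.02 after each scan was centred by array section, as described further on.

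Against the small subunit of the mitochondrial ribosome, with a median of -0.09 over 18 measured genes, the replicate medians differed by -0.19, -0.45 and -0.17, a mean of -0.27 ± 0.16 (SD, n = 3; exact p = 0.25, the smallest possible). Against all other genes they differed by -0.24, -0.63 and -0.46, a mean of -0.44 ± 0.19 (SD, n = 3; exact p = 0.25). In each of these comparisons the small-subunit genes were lower in 3 of 3 replicates.

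**Figure D2:**
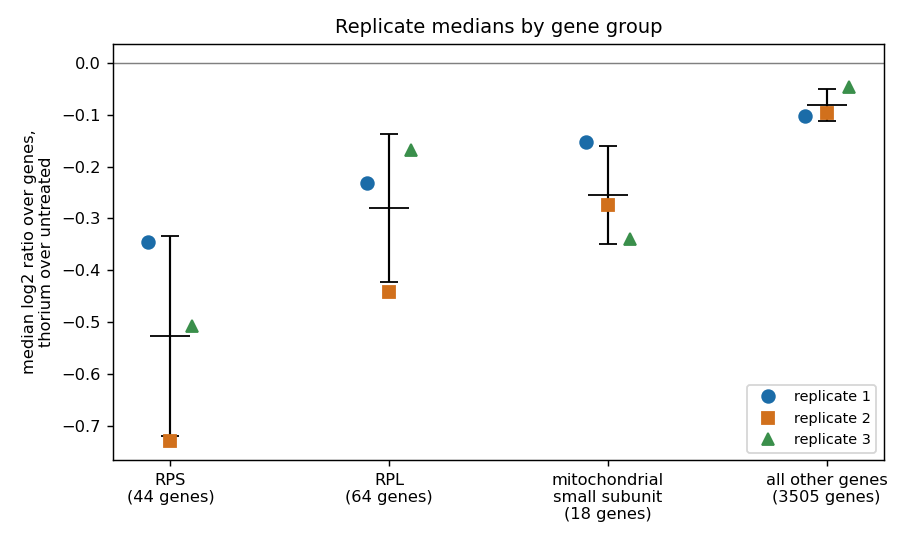
Median log2 ratio of thorium over untreated for 44 small-subunit genes, 64 large-subunit genes, 18 genes of the mitochondrial small subunit and 3505 other genes, which include the mitochondrial ones, in each replicate (points), with the mean and SD over the 3 replicates. The small-subunit medians of -0.34, -0.73 and -0.51 are below the large-subunit median of the same replicate in all 3.

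Among the genes that control or accompany these proteins, none passed in limma's test over all genes. Of 22 regulators listed, 14 were measured in all replicates, with a median of 0.12 and 8 means above 0. LST8, a subunit of the TOR complexes, stood at -0.77, -1.81 and -1.45, a mean of -1.34 ± 0.52 (SD, n = 3; adjusted p = 0.271 in limma's test). FHL1, an activator of ribosomal protein genes, read -1.01 and -0.74 in replicates 2 and 3 with no value in replicate 1, and CRF1, a corepressor at the same genes, read 2.78 and 0.71 in replicates 1 and 2 with none in replicate 3. KOG1, a TOR complex subunit, averaged 0.57 ± 0.72, SFP1, an activator, 0.37 ± 0.61 and GCN5, a histone acetyltransferase, -0.51 ± 1.08 (SD, n = 3 each). The activators IFH1 and RAP1 averaged 0.35 ± 0.36 and 0.32 ± 0.39 (SD, n = 3 each). With the section-centring described further on, KOG1, SFP1 and GCN5 had means of 0.15, 0.13 and 0.03. LST8, FHL1 and CRF1 were then at -1.27, -0.76 and 1.61, and IFH1 and RAP1 at 0.32 and 0.21.

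Of 18 listed assembly factors and partners of small-subunit proteins, 12 were measured in all replicates, with a median of -0.42 and 10 means below 0. YAR1, the chaperone of the RPS3 product, stood at -1.01, -0.86 and -1.005, a mean of -0.96 ± 0.08 (SD, n = 3; adjusted p = 0.291 in limma's test). TSR2, the chaperone of the RPS26 products, averaged -0.53 ± 0.57, YPK3, the kinase of the RPS6 products, -0.47 ± 0.56, and ASC1, a protein bound to the subunit's head, -0.43 ± 0.32 (SD, n = 3 each). These 4 genes had ratios below 0 in all 3 replicates. In total 5 of the 12 measured partners did (41.7%), against 23.2% of all tested genes. TMA22, another listed partner, was above 0 in all 3 replicates, at 0.25, 0.61 and 0.37. DIM1, a methylase of small-subunit rRNA, averaged -0.91 ± 0.998 and FAP7, a factor that handles the RPS14 products, -0.55 ± 0.63 (SD, n = 3 each). In replicates 2 and 3 alone, TSR3, an rRNA-modifying enzyme, read -1.30 and -0.92, while KRR1 and RIO2, both assembly factors, lay above 0, at 0.07 and 1.30 for KRR1 and at 0.35 and 0.83 for RIO2. With section-centring TSR3, KRR1 and RIO2 had means of -0.23, 0.20 and -0.27, so RIO2 changed sign. YAR1, DIM1 and FAP7 were then at -0.83, -0.68 and -0.53. TSR2, YPK3, ASC1 and TMA22 were at -0.32, -0.32, -0.36 and 0.54.

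The high and low power scans tell how far a ratio rests on 1 reading. Small-subunit genes gave values more often than other genes, in 84.3% of members in the high and 82.4% in the low power scan of replicate 1, against 70.9% and 47.4% of all named genes. In replicates 2 and 3 all 51 members had a value in the low power scan, and 49 and 48 had one in the high power scan. RPS2 in replicate 2 and RPS1A and RPS1B in replicate 3 were read at low power alone, and RPS3 had no high power value in any replicate. Whether these spots were beyond the scanner's range was not tested, since signal intensities were not used here.

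In replicate 2 the scans disagreed in size. The median of the 49 members read in both scans was -0.96 at high and -0.41 at low power, and 40 of the 49 were lower at high power, as were 57.1% of other genes. The SD of all genes read in both scans was 0.95 at high and 0.61 at low power there, so other genes were spread more at high power too. In replicate 1 the members' medians were -0.32 at high and -0.33 at low power, with 30 of 41 lower at high power, as were 72.4% of other genes, and in replicate 3 they were -0.47 and -0.45, with 23 of 48 lower at high power, as were 47.8% of other genes. With replicate 2 taken from its low power scan alone, a setting chosen after seeing the data, the median over members was -0.38 and 37 of 44 means were below 0. In limma's test of high minus low power over 2108 genes, 0 of 38 members were called, 0% of all genes were called lower and 0.0949% higher, and 0 members had an unadjusted p under 0.05, where 2.23% of all genes were lower and 1.09% higher.

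**Figure D3:**
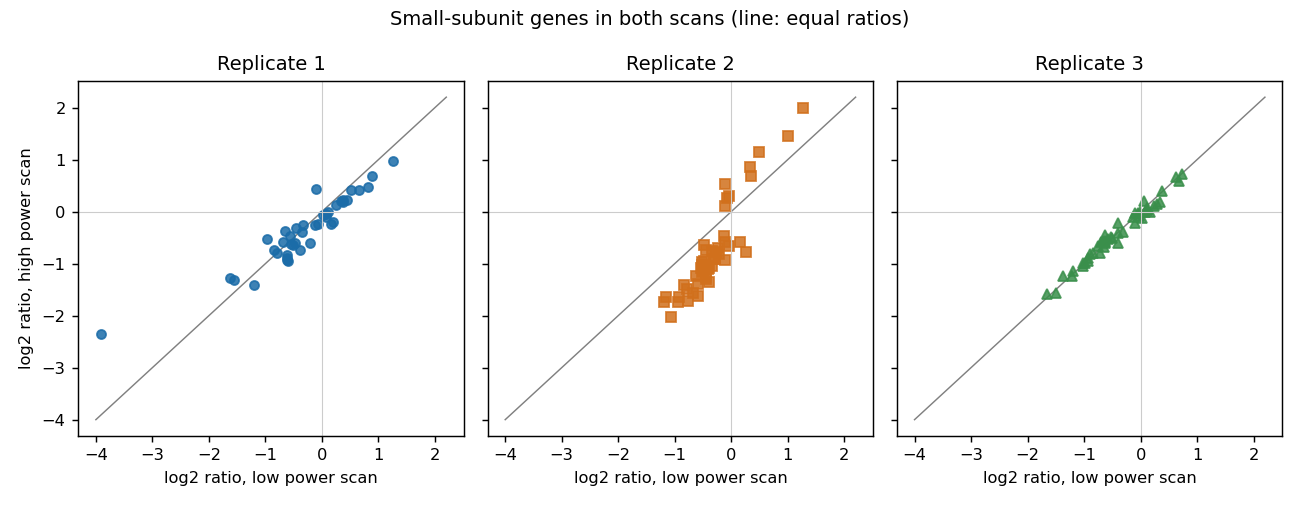
High against low power log2 ratios of the 51 small-subunit genes in each replicate, 1 point per gene with both scans, with a line where both scans are equal. In replicate 2 most points lie farther from 0 at high power, with medians of -0.96 at high and -0.41 at low power, while those of replicate 3 follow the line.

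Paralog pairs were compared by the difference of the A and B genes within each replicate. Both genes had a probe for 20 pairs, and 14 pairs were measured in all 3 replicates. In 10 of the 14 both means were below 0, in 4 the means lay on opposite sides of 0, and in 0 both were above it. Across the 14 pairs the means of A and B genes had a Pearson correlation of 0.20 and a Spearman correlation of 0.28, as a description over genes of shared arrays.

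The median absolute difference between A and B was 0.43 over the 14 pairs, 0.47 over the 932 other couples of small-subunit genes and 0.51 over 23 pairs of RPL genes. In 7 of 14 pairs the A gene was the lower one. In 5 of 14 pairs the difference had 1 sign in all 3 replicates, against 40.5% of the 42 A/B pairs of the whole table. Those 42 are the 14 small-subunit pairs themselves, 23 RPL pairs and 5 others, so they are mostly ribosomal protein pairs. The probes' sequences were not used here, and whether a probe also binds the partner's RNA was not tested.

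Differences were tested with limma over the 42 A/B pairs of the table. Shares over all pairs, and the common SD, therefore come mostly from ribosomal protein pairs. In that fit all pairs were given 1 common SD, 0.71, because the prior had infinite weight, so a pair's own spread did not enter its p. Of the 14 small-subunit pairs, 2 passed after adjustment over the 42 pairs, where 9.52% of all pairs passed, and 3 had an unadjusted p under 0.05, where 16.7% of all pairs did. With each pair's own spread in place of the common one (limma's fit without moderation), none passed and 3 had an unadjusted p under 0.05. Of all 42 pairs, 0 passed and 5 had such an unadjusted p in that fit. The called pairs were not among the 3 small-subunit pairs. Their unadjusted p was 0.0561 for RPS28 and 0.125 for RPS6 in that fit, while RPS4 had 0.0496 and RPS9 0.0440.

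The pair that passed with replicates that do not overlap was RPS28, for a small head protein, whose product is known to act on the mRNA of RPS28B. RPS28A stood at 1.05 ± 0.52 and RPS28B at -0.30 ± 0.21 (SD, n = 3 each). RPS28B read -0.52, -0.26 and -0.11 in replicates 1, 2 and 3, below every value of RPS28A. A minus B was 1.39, 1.89 and 0.75, a mean of 1.34 ± 0.58 (SD, n = 3; adjusted p = 0.0210 in limma's test over pairs), with a 95% interval from 0.53 to 2.16. The array section of RPS28A had a median of 0.63 and that of RPS28B one of -0.10, and after section-centring the difference was 0.55 ± 0.08 (SD, n = 3), above 0 in every replicate and no longer past the threshold. The call was also lost without replicate 2, at 1.07, and without replicate 3, at 1.64.

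For RPS6, A minus B was -2.35, -0.46 and -1.37, a mean of -1.39 ± 0.95 (SD, n = 3; adjusted p = 0.0210 in limma's test over pairs). All 3 differences were below 0, yet the values of the genes overlap between replicates. The call was lost in the high power scans alone, where the mean was -1.11 and RPS4 passed in its place at 1.34. It was also lost without any 1 replicate, with means of -0.91, -1.86 and -1.41 without replicates 1, 2 and 3. After section-centring the RPS6 difference was -1.45 ± 2.31 (SD, n = 3), with a spread larger than its mean, and the call was lost there too.

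RPS4, for a body protein, came close to the threshold. RPS4B read -0.77, -0.94 and -0.56, a mean of -0.76 ± 0.19 (SD, n = 3), and no replicate overlapped with those of RPS4A. A minus B was 1.23, 1.53 and 0.64, a mean of 1.13 ± 0.45 (SD, n = 3; adjusted p = 0.0588 in limma's test over pairs). After section-centring the difference was 0.53 ± 1.31 (SD, n = 3), and RPS4A itself stood at -0.05. In this setting 1 scan of RPS4B was left uncentred, which enters that difference and its spread.

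Pairs RPS21 and RPS27 had the widest gaps but lack replicate 1. For RPS21, A minus B was 1.57 and 1.27 in replicates 2 and 3, since RPS21A read 0.10 and -0.04 while RPS21B was far below 0. For RPS27 it was -1.21 and -1.67. In limma's test over pairs without replicate 1, both passed (adjusted p = 0.00425 each), as did RPS28 (adjusted p = 0.00744), RPS4 (adjusted p = 0.0288) and RPS16 (adjusted p = 0.0354), while RPS6 had an adjusted p of 0.0656. These are 5 of 20 small-subunit pairs, where 19.6% of all 51 pairs passed. The prior again had infinite weight, so each p rests on a common SD and not on the pair's own spread over 2 replicates. After section-centring the mean differences were 0.36 for RPS21 and -0.95 for RPS27.

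RPS9 and RPS16 had A genes below and B genes above 0 on average. RPS9A read 0.16, -0.35 and -0.41, and A minus B was -0.62, -0.87 and -0.40, a mean of -0.63 ± 0.24 (SD, n = 3; adjusted p = 0.428 in limma's test over pairs). RPS16A read 0.53, -0.55 and -0.60, and A minus B was 0.23, -1.37 and -0.68, a mean of -0.61 ± 0.80 (SD, n = 3; adjusted p = 0.428 in limma's test over pairs). The RPS9 difference had 1 sign throughout and the RPS16 difference did not.

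The pairs with the smallest gaps were RPS10, RPS23 and RPS24. RPS10A read -0.54, -0.80 and -0.50 and RPS10B -0.75, -0.78 and -0.75, so that this beak protein's genes were below 0 in every replicate, with means of -0.61 and -0.76. A minus B was 0.15 ± 0.15 (SD, n = 3). RPS23A read -0.79, -0.52 and 0.21 and RPS23B -0.72, -0.52 and -0.31, both for a protein of the decoding centre, and A minus B was 0.15 ± 0.32 (SD, n = 3). For RPS24 it was 0.15 ± 0.83 (SD, n = 3). The 95% intervals of the fit, which rest on the common SD, reach 0.81 to either side of each mean difference.

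Other pairs lay between these. RPS1 differed by -0.55 ± 0.84, RPS0 by 0.38 ± 0.54, RPS22 by -0.37 ± 0.65 and RPS19 by 0.30 ± 0.91 (SD, n = 3 each). Each of these 4 differences changed sign between replicates. RPS7, RPS25 and RPS26, without replicate 1, differed by 0.19, 0.40 and -0.21. RPS7A and RPS7B, for a protein of the body and platform, were both below 0 in every replicate with a value, at -0.54 and -0.75 on average.

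**Figure D4:**
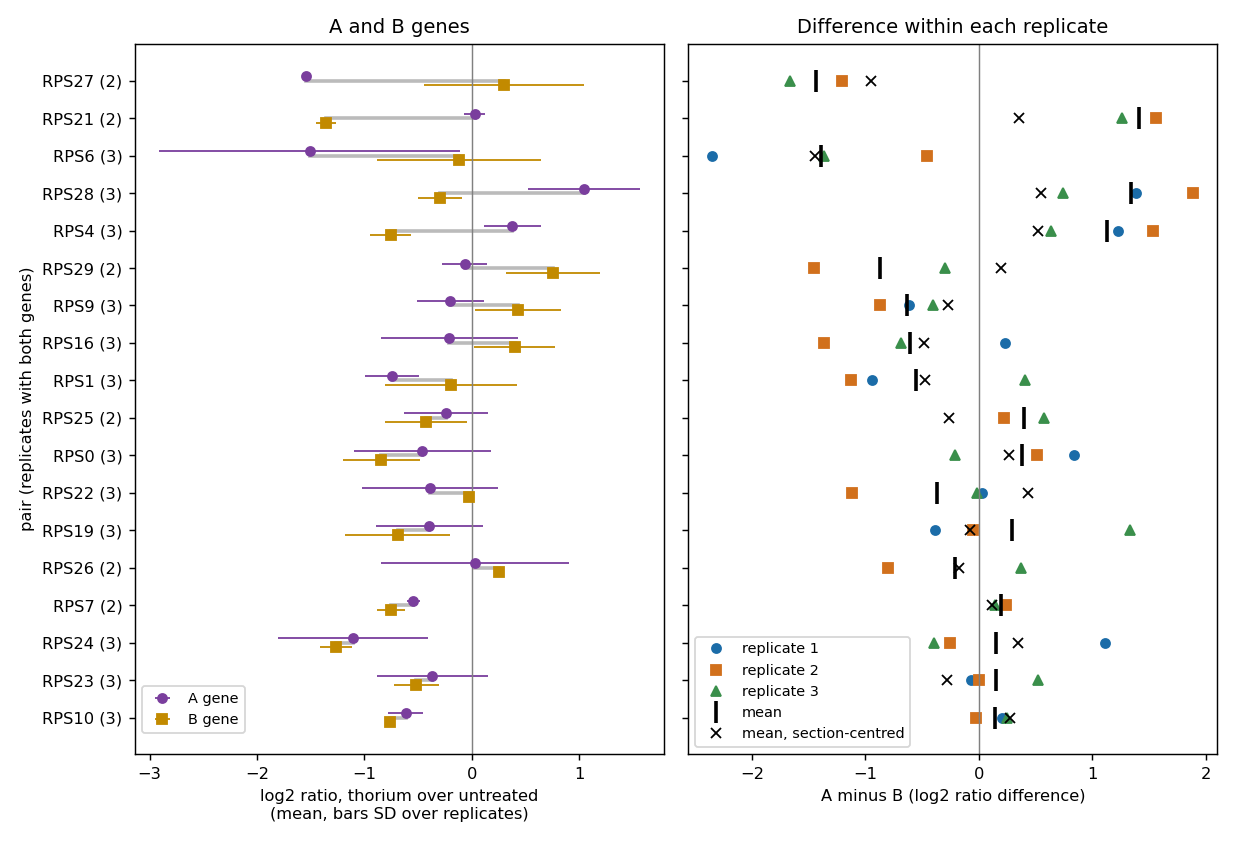
Left, mean log2 ratio of thorium over untreated for the A and the B gene of 18 of the 20 pairs, with SD over replicates and the number of replicates with both genes in parentheses. Right, A minus B in each replicate, its mean and its mean after section-centring, widest mean difference at the top. RPS27, RPS21, RPS6, RPS28 and RPS4 differ by over 1, and section-centring brings RPS27, RPS21, RPS28 and RPS4 nearer to 0. The mean difference changes sign with section-centring for RPS29, RPS25, RPS22, RPS19 and RPS23.

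Ratios also followed where a probe lay on the array. Sections of the array were read from the probe number, its first digit as a block and the next pair of digits as a row, a reading inferred from the numbers. Of the 192 sections, those with a median in every scan had medians, averaged over scans, from -0.68 to 0.63. The sections of RPS27A, RPS7B and RPS29A were lower, at -0.90, -0.73 and -0.70 over the scans with a median there. RPS27A, the lowest member as deposited, stood at -0.64 after its section's median was subtracted. Over the 39 members with a section median in every scan, 29 lay in a section below 0, and a member's mean had a Pearson correlation of 0.63 with its section's median. Over 3327 genes this correlation was 0.59, and a gene's own value is part of its section's median.

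With the section median subtracted, the median over members was -0.24, against -0.03 over all genes, and 35 of 44 means were below 0, where 52.8% of all genes were. Of the 37 means below 0 as deposited, 33 were also below 0 after centring. Below 0 in every replicate were 19 members (23.7% of all genes), and above 0 in every replicate 4 members (21.1% of all genes). RPS6A stood at -1.43 ± 2.27, RPS24B at -1.02 ± 0.94 and RPS21B at -0.87 ± 0.43 (SD, n = 3 each), so the spread of RPS6A was larger than its mean. RPS29B, RPS27B, RPS16B and RPS28A were the highest, at 0.67, 0.56, 0.39 and 0.35. RPS22B was at -0.02 as deposited and at -0.60 after centring, in a section with a median of 0.58.

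**Figure D5:**
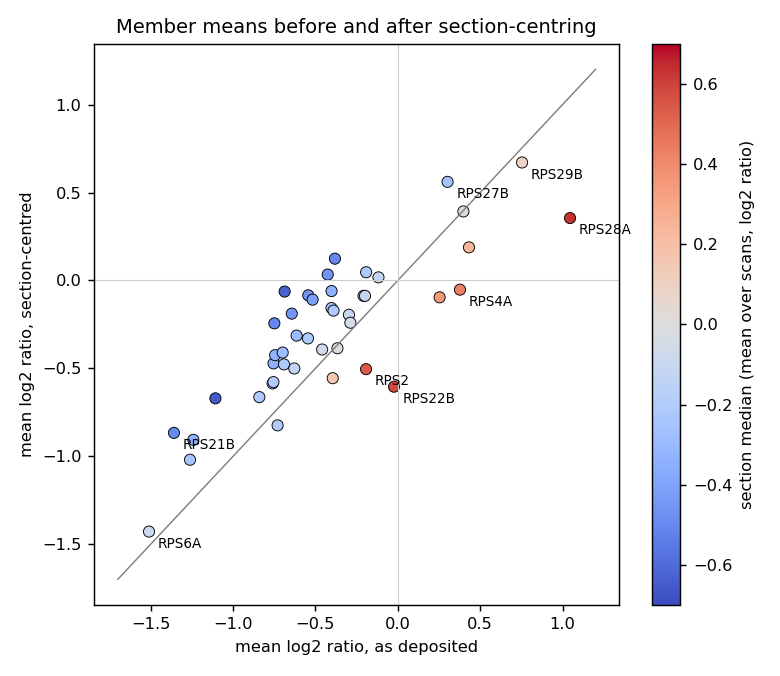
Mean log2 ratio of 44 small-subunit genes as deposited (horizontal) and after section-centring (vertical), coloured by the median of the gene's array section, with a line of equal values. RPS28A moves from 1.05 to 0.35 and RPS22B from -0.02 to -0.60, and 38 of 44 genes are nearer to 0 after centring. A gene's own value is part of its section's median, and the share nearer to 0 over all genes is not given here.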

How the data were processed

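The deposited values are log2 ratios per spot and scan, in the series' value table. Per the labels, the authors normalized spots with a flag of 0 by LOWESS and merged scans in GeneSpring, and the merged values are not used here. No scanner, image software or background step is named in the sources used here. Base 2 and the direction of Cy5 over Cy3 are assumed.

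Of 6912 probes 5513 carried 1 gene name and 1399 are unnamed here. Names were updated by Entrez ID for 5360 of 5365 genes (reference assembly R64). A gene's value per replicate is the mean over its probes and then over the scans that gave one. Genes measured in every replicate were tested against 0 with limma 3.58.1 in R 4.3.3 (lmFit, eBayes, Benjamini-Hochberg, threshold 0.05), with 2 residual and 4.43 prior degrees of freedom. Pairs are all symbols of the table that differ only by a final A or B, 42 of 51 being measured. Section-centring used sections with at least 5 genes, and 4 members kept 1 scan uncentred, among them RPS24A, RPS0B and RPS4B. No coordinates are given, as no build is named for these arrays. The number of arrays limits the precision.

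The members, lists, tests and naming rule were chosen with earlier results of these data known. Replicate values were to be given for the 6 lowest and 6 highest means, the 5 widest and 3 narrowest pairs with 3 replicates, single-copy genes and genes short of a replicate, and up to 6 genes each for regulators and partners by absolute mean. IFH1, RAP1, TSR2, YPK3, ASC1 and TMA22 fall outside that rule and were named after their values were seen. The values of some members are not reported here by name. Both limma fits were tested on simulated data with known changes.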

Additional observations from a re-analysis of the deposited data

How the results depend on the processing

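The settings tried were 14, and a setting is named as chosen after seeing the data where it was. The count of all genes past the threshold was 0 as deposited and 0 to 77 with 1 replicate left out, the 77 being without replicate 1. In the other settings it stayed at 0, and members called were 0 in all 14. The median over members moved to -0.24 and its difference from RPL genes to -0.016 with section-centring. With 1 replicate left out the median ran from -0.58 to -0.34, and in the high and low power scans alone it was -0.59 and -0.37. The count of called pairs was 0, against 2, in the low power scans alone (where RPS28 had no test, lacking a value), with all 6 scans and the replicate as a random block, with section-centring, with the unmoderated statistic, and with replicate 2 from its low power scan alone. It was 5 of 20 among genes with a value in at least 2 replicates, where 15.7% of all pairs passed. With 1 replicate left out it was 0 to 5, the 5 being without replicate 1, where 19.6% of all pairs passed. Among genes with both scans in all 3 replicates it was 2 of 11, where 11.1% of all pairs passed. Those 2 were RPS6 and RPS4, since RPS28 could not be tested there. The causes were not tested. Of 35 named genes and pairs only the RPS6 and RPS28 differences were past the threshold, and they lost it in 9 of 14 and 6 of 12 settings that gave a value. Some settings could not move these differences, such as the median over probes, since each member has 1 probe. In the settings that kept the RPS6 call its difference was unchanged at -1.39, except with quantile normalization, at -1.50. Over all 478 values of named genes and pairs 5 gained a call and 9 changed sign. RPS6B was at 0.00020 in the low power scans, 0.017 with section-centring and -0.54 to 0.21 with 1 replicate left out. RPS4A was at -0.052 with section-centring. With 1 replicate left out RPS27B ran from -0.10 to 0.62, RPS2 from -0.32 to 0.0029 and the RPS24 difference from -0.33 to 0.43. The RPS23 difference was -0.28 with section-centring and -0.034 to 0.26 with 1 replicate left out. Each ratio already pairs treated and untreated RNA of 1 array, and the samples form 1 group, so no further block between groups was fitted.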

Other observations

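In the order of genes in the reference table, several small-subunit genes stand next to another ribosomal protein gene, and values of such neighbours are given without a test. RPS14B, RPS22A and RPL39 follow each other, and their mean log2 ratios were -0.70, -0.39 and -0.72. RPS19B at -0.69 stands next to RPL18B at -0.74. RPS9B at 0.43 stands next to RPL21A at -0.89, and RPS16B at 0.40 next to RPL13A at -0.63, so both B genes above 0 had a neighbour below it. RPS15 at -0.73 stands next to RPP2A, a gene of the ribosomal stalk, at -0.03.

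On the array, 5 sections held more than 1 small-subunit gene. RPS0B, RPS4B and RPS15 shared a section with a median of -0.21, averaged over scans, and had means of -0.84, -0.76 and -0.73. After section-centring they stood at -0.66 ± 0.67, -0.58 ± 0.88 and -0.82 ± 1.13 (SD, n = 3 each), so each spread exceeded its mean in size. For RPS0B and RPS4B 1 scan was left uncentred. RPS19B and RPS1B shared another section, also with a median of -0.21 to 2 decimals, and had means of -0.69 and -0.19.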
